A study of Rattus norvegicus with 22 samples.

Results

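The comparison described here set the livers of rats fed with BASE-diet for 3 months (BD 3) against the livers of rats fed with control diet for 3 months (CD 3). It holds 10 of the 22 arrays of the series, 5 for each group, and its members were chosen by the diet and the duration in the sample labels. All rats were male Sprague–Dawley rats that were 8 weeks old when feeding began, and both groups received semi-synthetic diets of equal dry matter. The components named for BASE-diet were 6% of salmon fat in place of lard, 8% of hydrolysed linden inflorescence extract, 8% of pumpkin puree and 1% of 2 strains of probiotic bacteria, and the recipes also differed in rapeseed oil and wheat starch. These changes came together, so their parts in a difference between the groups cannot be told apart. The remaining arrays, 6 of rats fed with control diet (CD 14) and 6 of rats fed with BASE-diet (BD 14) for 14 months, entered the fit for its estimate of the spread. Where the slide was in the fit, they also informed the slide effects. Whole liver was measured, so fewer cells of a type and less RNA per cell cannot be told apart.

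The liver burns fatty acids in mitochondria and peroxisomes, makes cholesterol, bile acids and plasma proteins, stores and releases glucose, and clears foreign compounds. Long-chain n-3 fatty acids, which fish fat supplies, are known ligands of the nuclear receptor PPARalpha, whose target genes include acyl-CoA thioesterases, Cyp4a enzymes and enzymes of fatty acid oxidation. Polyunsaturated fatty acids are also known to lower the transcription of genes for glycolysis and lipogenesis, liver pyruvate kinase among them. Pumpkin supplies beta-carotene, which is cleaved to retinoids, and polyphenols of plant extracts are commonly discussed together with antioxidant and detoxifying enzymes.

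Each array measured a rat's RNA in Cy5 against a common reference in Cy3, which was pooled liver RNA of 10-week-old healthy rats. Values are therefore log2 ratios to that reference, and 1 unit is a 2-fold change. This orientation is that of the labels on all arrays and was followed, although the methods assign Cy3 to control rats and Cy5 to BASE-diet rats, and no dyes were swapped. Spots with Cy5 well above background made up 52.4% to 93.6% of an array in CD 3 and 67.5% to 92.4% in BD 3, and the SD of the log2 ratios on an array was 0.56 to 1.28 in CD 3 and 0.50 to 0.65 in BD 3. CD 3 rat 4 had the dimmest array (median Cy5 signal 21.8) and the widest log2 ratios, and CD 3 rat 1 the brightest array (median 488) with 4.44% of its spots non-uniform. Correlations between arrays ran from −0.08 to 0.51 within CD 3 and from 0.25 to 0.47 within BD 3. The groups lay mostly on different slides. Slide A held BD 3 rats 3, 4 and 5, slide D held CD 3 rats 2, 3 and 4, and slide E held CD 3 rat 5. Slide B alone held both groups, with CD 3 rat 1 and BD 3 rats 1 and 2. With the slide as a block, CD 14 arrays on slides A and E also link the groups. The difference then rests on CD 3 rats 1 and 5, since slide D holds no other group. In the authors' table of processed values, 4 of the 5 columns of CD 3 matched the arrays of rats 2 to 5, and the array of CD 3 rat 1 matched none of them. The study rejected an array of this group, and whether it was this one is not given in the sources used here.

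Of 30367 probes, 18518 were tested, having a Cy5 signal well above background in all 5 rats of 1 diet or the other, and they reported 16316 genes. Of these genes, 12498 were measured on all 10 arrays and 3702 passed through BD 3 alone. Such genes are dim in CD 3 by selection, so counts are also given over the genes measured on all 10 arrays. By limma with Benjamini-Hochberg adjustment over all probes tested, 1 probe (0.0054%) passed the threshold between the diets. It had entered the test through BD 3 alone, and 0 of the genes measured on all 10 arrays passed, where 625 were higher and 261 lower at an unadjusted p under 0.05. An unadjusted p under 0.05 was reached by 1345 probes, 960 higher and 385 lower in BD 3. With each array centred on its median the split was 791 higher and 530 lower, and without a detection filter it was 1058 and 787. The split also depended on control rats, with 1215 higher and 1113 lower without CD 3 rat 1. Without both CD 3 rats 1 and 4, a choice made after seeing the data, it was 733 higher and 988 lower. By gene, 828 (5.07%) were higher and 334 (2.05%) were lower at an unadjusted p under 0.05, and 53.5% were higher by mean. Over the genes measured on all 10 arrays these shares were 5%, 2.09% and 52.7%. The median difference over all genes was 0.03. All 5 BD 3 values lay above all CD 3 values for 87 genes (0.533%) and below them for 40 genes (0.245%). Apart from that 1 probe, no difference named below passed the adjusted test. The values describe these 10 livers, whose diets lay mostly on different slides. When the slide entered the fit as a block, 26 of 107 named genes turned direction, 37 kept it with a difference more than 1.5 times smaller and 44 kept it otherwise.

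The probe that passed carries no gene name and no position in rn4, the rat build of the array annotation, so its sequence of 60 bases is its identity and is shown for that reason.
A_64_P041657: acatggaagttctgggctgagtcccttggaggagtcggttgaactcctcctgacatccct
Its log2 ratio was 3.03, 2.54, 3.11, 2.68 and 2.11 in BD 3 rats 1 to 5, and −0.43, 1.03, −0.07 and 0.00 in CD 3 rats 2 to 5, while CD 3 rat 1 had no value because its spots were non-uniform. The 0.00 of CD 3 rat 5 came from surrogate values in both channels, which the software sets for spots not above background. The probe was not well above background on any CD 3 array and was so on all 5 BD 3 arrays, so only a bound can be given: in Cy5 it was at least 1.29-fold higher in BD 3, from the lowest signal that counted as well above background. The fit's adjusted p was 0.0487. The probe kept its call with the arrays centred, with Cy5 alone, with 1 probe per gene and without CD 3 rat 1, 3 or 5, and did not pass under any other alternative, among them the slide as a block, the fit of the 10 arrays alone and each of the other 7 arrays left out.

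Among the genes of fatty acid breakdown, the lists for mitochondria and peroxisomes had medians of 0.41 and 0.24 and that for thioesterases and omega-hydroxylases −0.13, against 0.03 for all genes. The first was 0.15 without CD 3 rat 4, 0.21 with the slide as a block (0.16 for all probes) and 0.097 within slide B. The second was −0.04 without CD 3 rats 1 and 4. The third turned to 0.27 with Cy5 alone, 0.14 with the slide as a block and 0.13 without CD 3 rat 1. The gene with the widest difference was Acot1, which encodes a cytosolic thioesterase that splits fatty acyl-CoA and is a textbook target of PPARalpha. Its probe (A_42_P548410, chromosome 6, 108049691 to 108049750 in rn4) gave −1.49, −1.59, −2.90, −2.07 and −1.69 in CD 3 rats 1 to 5, against 0.42, 1.53, −0.37, 1.40 and −0.01 in BD 3 rats 1 to 5. Every BD 3 rat lay above every CD 3 rat. Means ± SD over 5 rats each were −1.95 ± 0.57 for CD 3 and 0.59 ± 0.84 for BD 3, a 5.82-fold difference (2.54 ± 0.63, SE) with an adjusted p of 0.374. Acot1 lies in a cluster of very similar thioesterase genes, and signal from the others on this probe cannot be told apart. Acot5, another gene of that family, differed by −0.94 ± 0.62 (SE), but by 0.16 with the slide as a block and 0.48 within slide B. The bases before the start of Acot1 are shown because its difference was the largest among the fatty acid genes named here. They are the 250 bases upstream of its start in RefSeq (chr6:109367024-109367273, plus strand, build GRCr8), with the CCAAT boxes of either strand in capitals.
Acot1 promoter: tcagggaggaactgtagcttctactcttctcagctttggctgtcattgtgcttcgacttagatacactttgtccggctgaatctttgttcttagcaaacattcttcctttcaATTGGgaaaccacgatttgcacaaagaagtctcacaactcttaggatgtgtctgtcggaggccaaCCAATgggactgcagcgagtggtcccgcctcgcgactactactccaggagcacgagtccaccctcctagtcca
CCAAT, searched on both strands, begins at −73 and, reversed, at −138 from the start, and 34% of 33469 promoters of this length hold it.

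**Figure D1:**
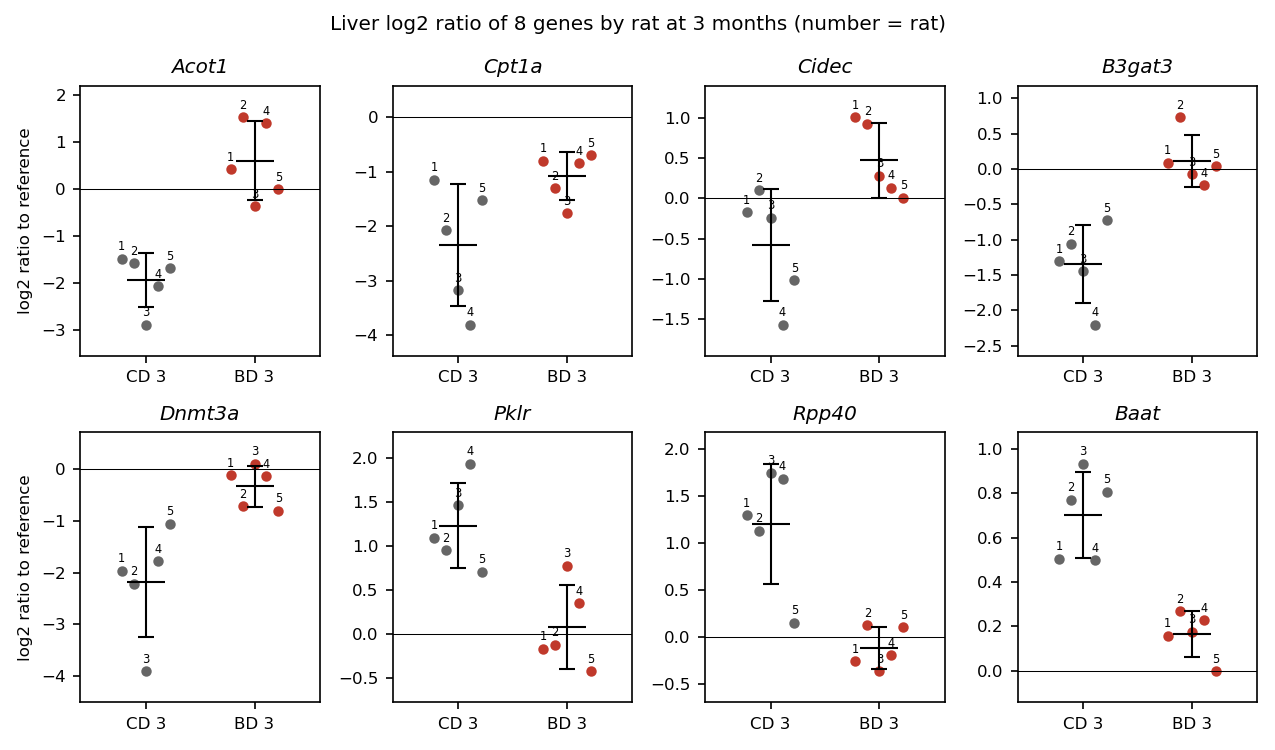
Log2 ratio to the common reference (vertical axis, a scale of its own for each gene) of 8 genes in the 5 rats of CD 3 (grey) and the 5 rats of BD 3 (red), with the rat's number beside each point and the mean ± SD in black. For Acot1, B3gat3 and Dnmt3a all BD 3 points lie above the CD 3 points, for Rpp40 and Baat all lie below, and for Cpt1a, Cidec and Pklr the groups overlap.

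Of the 19 tested thioesterase and omega-hydroxylase genes, 2 had an unadjusted p under 0.05, both higher, and 9 were higher by mean. The second was Cyp4a1, a fatty acid omega-hydroxylase, at 0.93 ± 0.40 (SE). Its BD 3 values ran from −0.60 to 0.20 and its CD 3 values from −2.23 to −0.38, so the groups overlapped through CD 3 rat 1. In mitochondrial fatty acid oxidation and ketogenesis, 19 of 22 genes were higher in BD 3 by mean (53.5% of all genes), and 5 higher and none lower at an unadjusted p under 0.05 (5.07% of all genes were higher). Over the 20 genes measured on all 10 arrays these counts were 17 and 3, and the median was 0.36. Cpt1a, which controls the entry of long-chain acyl groups into mitochondria, was −1.14, −2.07, −3.17, −3.81 and −1.52 in CD 3 and −0.80, −1.30, −1.75, −0.84 and −0.70 in BD 3. CD 3 rats 3 and 4 were lowest, and the difference was 1.26 ± 0.47 (SE). The others past that mark were the uncoupling protein gene Ucp2 (0.69; 0.32 with the slide as a block, well above background on 4 of 5 CD 3 arrays), the dehydrogenase gene Hadh (0.47; 0.051 with the slide as a block) and the carnitine carriers Slc22a5 (1.07) and Slc25a20 (0.54).

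In peroxisomal beta-oxidation the median was 0.24. Of 23 genes, 16 were higher by mean (53.5% of all genes) and 2 at an unadjusted p under 0.05 (5.07% of all genes). These were Acox2, which oxidises branched chains and bile acid precursors (1.19 ± 0.44, SE), and Ehhadh, the bifunctional enzyme (1.20 ± 0.52, SE). Ehhadh was −0.36, −0.09, −2.16, −2.60 and 0.02 in CD 3 and −0.56, −1.01, 0.50, 1.08 and 0.81 in BD 3, so BD 3 rats 1 and 2 lay among the control rats. Among genes that respond to fasting, 1 of 18 passed an unadjusted p of 0.05, Cidec, a lipid droplet protein gene, with −1.57 to 0.11 in CD 3 and 0.01 to 1.01 in BD 3 (1.05 ± 0.31, SE). Ppara itself differed by 0.99 ± 0.56 (SE), Fgf21 by −0.92 ± 0.74 (SE) and Pdk4 by −0.00 ± 0.37 (SE), all with overlapping groups. With the slide as a block Fgf21 was 0.48 and Pdk4 0.55, and within slide B they were 0.84 and 1.09.

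Several of these values differed when the slide was in the fit. As a block it gave a difference of 2.26 for Acot1, 0.99 for Cidec and 1.46 for Acox2, but 0.37 for Cpt1a, 0.09 for Cyp4a1, −0.22 for Ehhadh and −0.82 for Ppara, when the median of all probes was 0.16. Within slide B, 2 BD 3 rats against 1 CD 3 rat with no test, Acot1 differed by 2.46, Cidec by 1.14 and Acox2 by 1.18, Cpt1a by 0.09, Cyp4a1 by −0.17 and Ehhadh by −0.42. The mean of the mitochondrial list was lowest on the array of CD 3 rat 4 (−1.40) and lay between −0.55 and 0.18 in the other CD 3 rats and between −0.33 and 0.08 in BD 3. On the same array the mean of 14 hepatocyte markers was −1.56, against −0.37 to 0.42 in the other CD 3 rats. Without CD 3 rat 4 the median of the mitochondrial list was 0.15, and without rats 1 and 4 that of the peroxisomal list was −0.04. The part of the array and of the slide in these differences was not tested further.

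**Figure D2:**
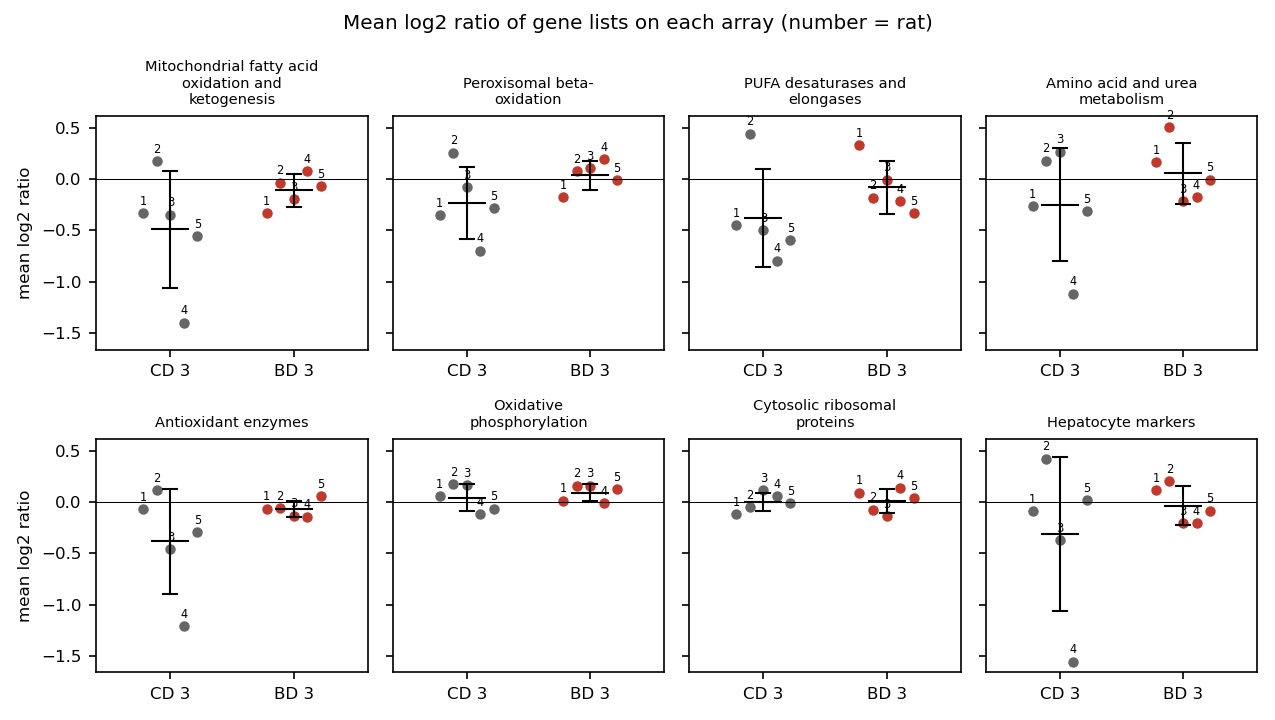
Mean log2 ratio to the reference (vertical axis, shared by the panels) of the genes of 8 lists on each of the 10 arrays, CD 3 in grey and BD 3 in red, with the rat's number beside each point and the mean ± SD in black. CD 3 rat 4 lies lowest in the lists of metabolism and of hepatocyte markers, at −1.40 for mitochondrial fatty acid oxidation, while oxidative phosphorylation and ribosomal protein genes lie within 0.18 of 0 on every array.

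Of genes for uptake, binding and desaturation of polyunsaturated fatty acids, 15 of 20 were higher in BD 3 by mean (53.5% of all genes). At an unadjusted p under 0.05, 4 were higher and 1 lower (5.07% and 2.05% of all genes), and the median was 0.32. Higher were Acsl4, which activates arachidonic acid (1.23 ± 0.48, SE), the liver fatty acid binding protein gene Fabp1 (0.65 ± 0.26, SE), the elongase gene Elovl5 (0.81 ± 0.36, SE) and the desaturase-like Fads6 (0.92), and lower was Slc27a5 (−0.56), which activates bile acids and very long fatty acids. Acsl4 was 0.70, 0.70, −0.10, 0.71 and 0.62 in BD 3, and −0.54, 0.51, −0.93, −3.13 and 0.56 in CD 3, with rat 4 far below the rest. With the slide as a block Fabp1 was 0.059 and Acsl4 0.48, and the list's median was 0.18 with that block and 0.11 without BD 3 rat 1. The delta-5 and delta-6 desaturase genes Fads1 and Fads2 differed by 0.39 ± 0.63 and 0.74 ± 0.54 (SE), within the spread between rats.

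In cholesterol synthesis and uptake 13 of 25 genes were higher by mean and the median was 0.00, but with the slide as a block the median was 0.56 and within slide B 0.82, against 0.16 for all probes with that block. At an unadjusted p under 0.05, 1 of them was higher (5.07% of all genes), and none of those measured on all 10 arrays. The sterol synthesis gene Sqle differed by −0.43 ± 0.75 (SE), within its spread, and by 1.02 with the slide as a block. Msmo1 was 0.02 to 0.54 in CD 3 and −0.38 to 0.38 in BD 3, with overlapping groups. It differed by −0.52 ± 0.30 (SE), and by −0.52 with the slide as a block. In de novo lipogenesis 11 of 22 genes were higher, with a median of −0.02. The fatty acid synthase gene Fasn differed by −0.23 ± 0.69 (SE) and the stearoyl-CoA desaturase gene Scd by 0.03 ± 1.18 (SE). With the slide as a block they were 0.11 and −2.70, and within slide B 0.80 and −3.42. Scd ran from −2.56 to 1.92 in CD 3 and from −2.35 to 5.11 in BD 3, where rat 3 stood apart. Scd2 (1.33 ± 1.06, SE; −0.25 with the slide as a block) and the triglyceride synthesis gene Dgat1 (0.35 ± 0.21, SE) also had overlapping groups.

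The lipogenic gene with the smallest p was Pklr, which encodes liver pyruvate kinase, the last step of glycolysis. Its probe (A_64_P121871, chromosome 2, 181223446 to 181223505 in rn4) gave 1.09, 0.95, 1.46, 1.93 and 0.71 in CD 3 and −0.16, −0.12, 0.78, 0.35 and −0.42 in BD 3. Only BD 3 rat 3 lay above the lowest CD 3 rat. Means ± SD over 5 rats each were 1.23 ± 0.48 for CD 3 and 0.09 ± 0.48 for BD 3, a difference of −1.14 ± 0.32 (SE; 2.21-fold; adjusted p 0.375). Fitted with the slide it was −1.11, within slide B −1.23 and without CD 3 rats 1 and 4 −0.96. The bases before its start are shown because this promoter is a textbook site of glucose control. They are the 250 bases upstream in RefSeq (chr2:176841014-176841263, plus strand, build GRCr8), with CACGGG of either strand and TATAAA in capitals.
Pklr promoter: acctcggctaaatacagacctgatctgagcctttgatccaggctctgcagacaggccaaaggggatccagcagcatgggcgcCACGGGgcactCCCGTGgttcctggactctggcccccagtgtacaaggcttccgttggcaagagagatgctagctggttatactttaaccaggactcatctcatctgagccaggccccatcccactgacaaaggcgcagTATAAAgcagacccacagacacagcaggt
CACGGG, as in the carbohydrate response element of this gene, begins at −168 and, reversed, at −157, and 8.05% of promoters hold it on either strand. TATAAA begins at −29 and is held by 12.9%. The E-box CACGTG was not in this window and is held by 5.59%.

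Among 34 genes of glucose production and glycolysis, 5 were lower and 2 higher at an unadjusted p under 0.05, against 2.05% and 5.07% of all genes, and 15 were higher by mean with a median of −0.10. Besides Pklr, the lower ones were the transcription factor gene Foxo3 (−0.89 ± 0.34, SE), Ugp2, which makes UDP-glucose for glycogen (−0.69 ± 0.28, SE), the glucokinase regulator Gckr (−0.50) and the glycogen phosphorylase gene Pygl (−0.39). The higher ones were the insulin receptor gene Insr (0.74) and Ppp1r3b, a glycogen-targeting phosphatase subunit (1.17), both well above background on 4 of 5 CD 3 arrays. Ugp2 was 0.54 to 0.94 in CD 3 and −0.45 to 0.11 in 4 BD 3 rats, while BD 3 rat 5 was at 1.05. In amino acid and urea metabolism the median was 0.25, and 34 of 46 genes were higher by mean (53.5% of all genes). At an unadjusted p under 0.05, 3 were higher and none lower. These were Sds, a serine dehydratase (2.75 ± 1.14, SE), Bhmt, which returns homocysteine to methionine (0.85 ± 0.36, SE), and Cbs, which starts transsulfuration (0.42 ± 0.19, SE), with Bhmt at 1.55 and Cbs at 0.24 when slide-blocked. Sds was 2.89, 3.16 and 0.75 in BD 3 rats 1, 2 and 5 but −1.75 and −2.23 in rats 3 and 4, within the CD 3 range of −3.74 to −0.06. Without CD 3 rats 1 and 4 the median of this list was −0.02.

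**Figure D3:**
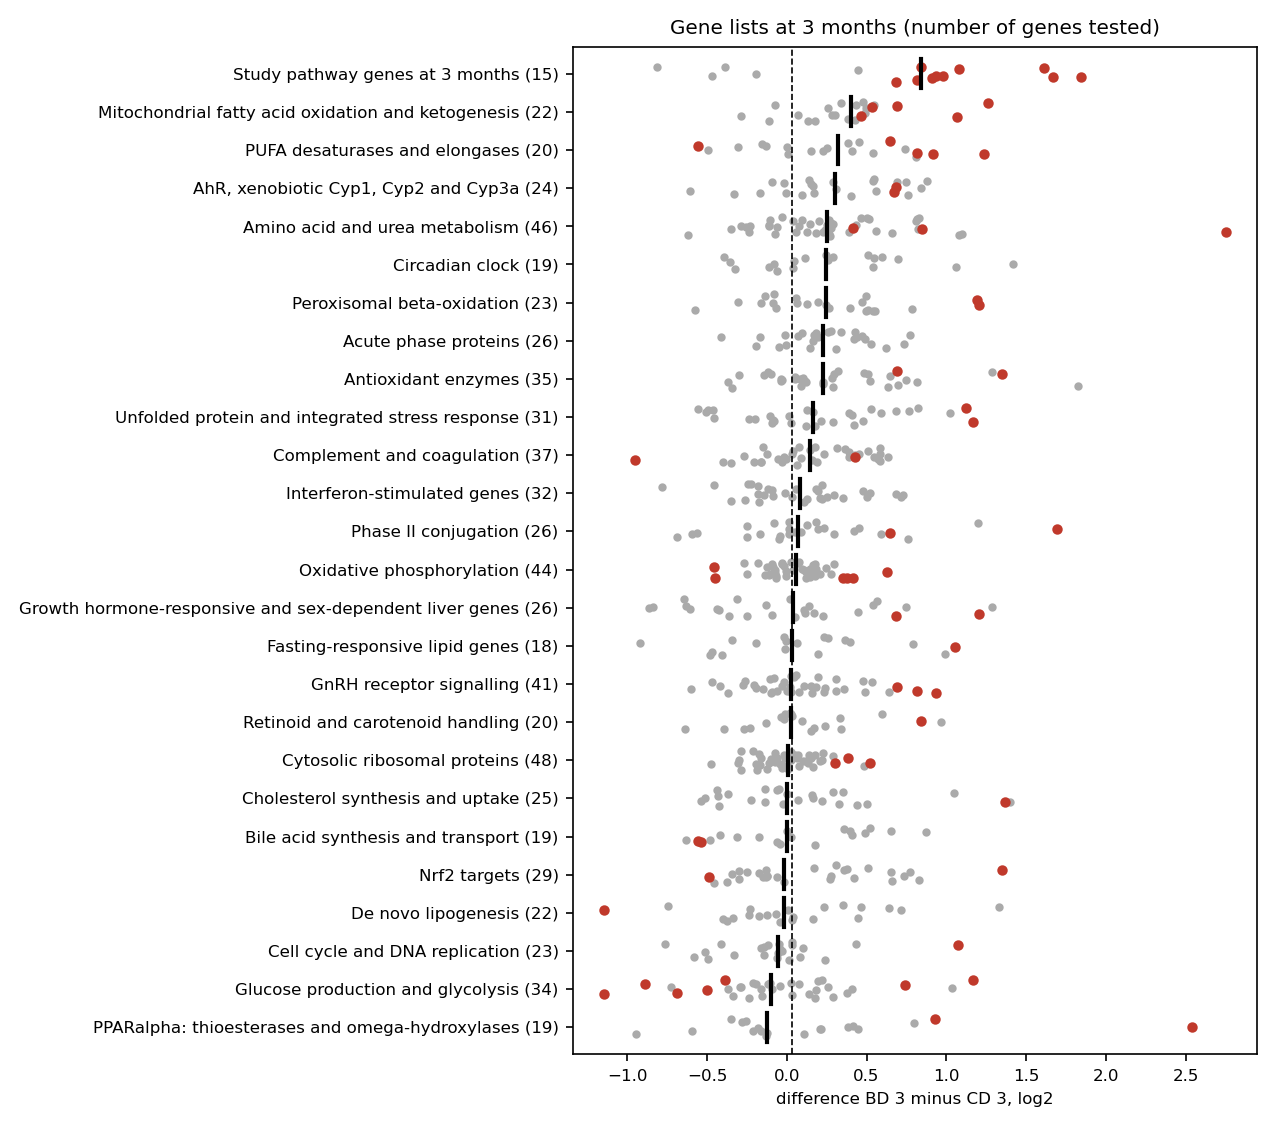
Difference between BD 3 and CD 3 on the log2 scale (horizontal axis) of each tested gene in 26 lists of liver functions, with red points for an unadjusted p under 0.05, black bars for list medians and a dashed line for the median of all genes (0.03). The medians run from −0.13 for thioesterases and omega-hydroxylases (0.14 with the slide as a block) to 0.84 for the genes of the study's own pathways, and most red points lie to the right.

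In bile acid synthesis and transport, 10 of 19 genes were higher by mean (53.5% of all genes), and the median was 0.00. At an unadjusted p under 0.05, 2 genes were lower, where 2.05% of all genes were. Baat, which joins bile acids to taurine or glycine, was 0.50, 0.77, 0.93, 0.50 and 0.81 in CD 3 and 0.16, 0.27, 0.18, 0.23 and −0.00 in BD 3. The groups did not overlap, and the difference was −0.54 ± 0.22 (SE; adjusted p 0.596). The second was Slc27a5, at −0.56 ± 0.26 (SE) but at 0.17 with the slide as a block. The uptake carrier Slc10a1 differed by −0.48 ± 0.24 (SE), and Cyp7a1, the rate-limiting enzyme of bile acid synthesis, by 0.87 ± 0.93 (SE). In retinoid and carotenoid handling 1 of 20 genes was higher at an unadjusted p under 0.05, where 5.07% of all genes were. This was the retinal reductase gene Dhrs4 (0.84 ± 0.39, SE), at −0.0044 with the slide as a block and at 0.46 without CD 3 rat 4. The carotene-cleaving enzyme genes Bco1 and Bco2 differed by 0.03 ± 0.54 and 0.59 ± 0.36 (SE), and Rdh10 by −0.39 ± 0.21 (SE). The retinoic acid hydroxylase gene Cyp26a1 was well above background on 3 CD 3 and 4 BD 3 arrays and was not tested.

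The median of 35 antioxidant enzyme genes was 0.23. Of them, 26 were higher by mean (53.5% of all genes) and 2 at an unadjusted p under 0.05 (5.07% of all genes). These were the thioredoxin reductase gene Txnrd1 (1.35 ± 0.50, SE) and Ucp2, each well above background on 4 of 5 CD 3 arrays. Over the 27 genes of this list measured on all 10 arrays, none passed and the median was 0.12. A second Txnrd1 probe differed by −0.49, and with the slide as a block Txnrd1 was 0.075, Prdx1 −0.17 and Cat −0.75. The peroxiredoxin gene Prdx1 differed by 1.29 ± 0.63 (SE), with CD 3 rats 3 and 4 at −2.38 and −4.58 and all other rats between −0.22 and 0.25. Catalase (Cat) differed by 0.63 ± 0.57 (SE) and the glutathione peroxidase gene Gpx1 by −0.37 ± 0.27 (SE). Of 29 genes of the Nrf2 response, among them Nrf2 and its inhibitor, 14 were higher by mean and the median was −0.02. Nfe2l2, which encodes the transcription factor Nrf2, was at −0.49 ± 0.18 (SE), with 0.19 to 1.04 in CD 3 and −0.12 to 0.57 in BD 3. Keap1, the oxidant sensor that holds Nrf2 back, differed by 0.65 ± 0.37 (SE) and the target Nqo1 by 0.66 ± 0.59 (SE). They were 0.25 and 0.10 without CD 3 rat 4, and 0.30 and −0.43 without CD 3 rats 1 and 4.

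In the cytochrome P450 list, genes that clear foreign compounds, 18 of 24 were higher by mean, 2 at an unadjusted p under 0.05 where 5.07% of all genes were, and the median was 0.30. These were Cyp2a1 (0.67 ± 0.26, SE) and Cyp2a2 (0.68 ± 0.30, SE), similar genes whose signals may mix, and both were near 0 with the slide as a block (−0.01 and −0.08). The third was Cyp2j3 at 0.56 ± 0.31 (SE). Cyp1a1, the standard readout of the aryl hydrocarbon receptor, was well above background on 1 CD 3 array and no BD 3 array and was not tested. In phase II conjugation 17 of 26 genes were higher by mean, and the 2 with an unadjusted p under 0.05 were the glutathione transferase gene Gstk1 (0.65 ± 0.24, SE) and the glucuronosyltransferase gene Ugt2b1 (1.69 ± 0.80, SE), against 5.07% of all genes, while Gstt2 differed by −0.60 ± 0.36 (SE). Slide-blocked values were 1.05 for Gstk1, 3.85 for Ugt2b1, 0.11 for Gstt2 and 0.12 for Cyp2j3. Of 26 growth hormone-responsive and sex-dependent genes, 14 were higher by mean, led by Srd5a1 (1.21 ± 0.54, SE; slide-blocked 0.71), Cyp2a2 and Igfals (0.45 ± 0.28, SE). Igfals was −0.037 slide-blocked and 0.15 without CD 3 rat 4. The male-specific Cyp2c11 differed by −0.09 ± 0.60 (SE).

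Over all named genes, the smallest p belonged to B3gat3, which adds the last linker sugar of proteoglycans. It gave −1.30, −1.06, −1.44, −2.20 and −0.73 in CD 3 and 0.09, 0.73, −0.07, −0.23 and 0.04 in BD 3. All BD 3 rats lay above all CD 3 rats, by 1.46 ± 0.27 (SE; 2.75-fold; adjusted p 0.135). Dnmt3a, a DNA methyltransferase, was −1.96, −2.21, −3.90, −1.78 and −1.06 in CD 3 and −0.13, −0.72, 0.10, −0.15 and −0.81 in BD 3, without overlap (1.84 ± 0.38, SE; adjusted p 0.206). On 2 of the 5 CD 3 arrays it did not stand well above background. Ubl5, a ubiquitin-like splicing factor, ran from −0.68 to −0.23 in CD 3 and from 0.10 to 0.93 in BD 3 (0.89 ± 0.18, SE), and Dact2 from −1.30 to −0.36 and from −0.05 to 0.58 (0.97 ± 0.22, SE). The other 8 of the 12 with the smallest p among the higher genes were Adam34, Ggact (1.20), C1h11orf58 (0.88), the ubiquitin-conjugating enzyme gene Ube2d1 (2.57), Gid8 (1.94), the complex I subunit gene Ndufa7 (2.47), Lrrcc1 and the claudin gene Cldn12 (0.90). Adam34 had both channels at surrogate values on 4 CD 3 arrays, which gives a ratio of 0 and no measurement, so no difference is given for it, and Lrrcc1 was not well above background on any CD 3 array, lacked a value in CD 3 rat 1 and was at least 1.5-fold higher in BD 3 by the bound described above. Ube2d1, Gid8 and Ndufa7 were lowest in CD 3 rats 3 and 4, at −3.12 to −3.99, and Ube2d1 and Ndufa7 were well above background on 4 of 5 CD 3 arrays, as were Bmp2k, Trim23, Bag4 and Mplkip among the lower genes described next.

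Among the lower genes Rpp40, a subunit of ribonuclease P, had the smallest p, with 1.30, 1.13, 1.75, 1.69 and 0.15 in CD 3 and −0.26, 0.12, −0.37, −0.19 and 0.11 in BD 3. The groups did not overlap, by a margin of CD 3 rat 5 only, and the difference was −1.32 ± 0.27 (SE; adjusted p 0.206). Nrf1, a regulator of nuclear genes for mitochondria, was −0.13 to 1.08 in CD 3 and −0.29 to −0.17 in BD 3 (−0.76 ± 0.22, SE), and its second probe differed by −0.73, but it was −0.39 with the slide in the fit and −0.22 with Cy5 alone. Bag4, a chaperone regulator, was 0.80 to 1.44 and −0.77 to 0.41 (−1.37 ± 0.41, SE), and its second probe differed by −0.32. Mplkip (−0.79, second probe −0.17) and Tmem88b (−0.58) did not overlap either. The remaining genes of the 12 were Pklr, the tRNA modification gene Trmt12 (−0.82), Cox11, which delivers copper to cytochrome oxidase (−0.71), Bmp2k (−0.96), Trim23 (−1.24), Zfp609 (−0.71) and Zscan26 (−0.65). Bmp2k and Mplkip lacked a value in CD 3 rat 1, and other probes differed by 0.01 for Bmp2k and by 0.51 and −0.49 for Cox11. With Cy5 alone, most of the 24 were smaller, B3gat3 0.90, Dnmt3a 0.15, Ubl5 0.29, Ggact 0.20, Rpp40 −0.74 and Trim23 −0.0055, and Zscan26 turned to 0.10. The Cy5 values alone came from a background correction with an offset of 50 and quantile normalization. Their sizes are therefore not on the scale of the log2 ratios. With the slide as a block Gid8 was 0.64, Ube2d1 1.34, Ndufa7 1.31, Dnmt3a 1.07, Rpp40 −0.82 and Bmp2k −0.47, while Ggact was 2.13.

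A further list holds genes of the pathways that the study took up at this age. Of its 15 tested genes, 10 were higher in BD 3 at an unadjusted p under 0.05 and the median was 0.84, but the study chose them on these arrays, so this count is not independent evidence. They included Sptbn1, a spectrin of the cell cortex (1.61 ± 0.46, SE), and the nucleoside carrier Slc28a2 (1.67 ± 0.53, SE), with Dnmt3a. Sptbn1 was lowest in CD 3 rats 3 and 4 (−2.87 and −2.52), and its second probe differed by −0.49, while that of Slc28a2 differed by −0.09. Slide-blocked, Sptbn1 was 0.49 and Slc28a2 1.81. In the Cy5 channel alone the median of these 15 genes was 0.15, and without CD 3 rat 4 it was 0.46. Over 41 tested genes of signalling by the receptor of gonadotropin-releasing hormone (GnRH), the median was 0.03, that of all genes. Of them, 24 were higher by mean (53.5% of all genes) and 3 at an unadjusted p under 0.05 (5.07% of all genes). They included the transcription factor gene Elk1 (0.93 ± 0.34, SE) and the adenylyl cyclase gene Adcy6 (0.69 ± 0.32, SE). Slide-blocked they were 0.30 and 0.40. Elk1 was well above background on 2 and Adcy6 on 3 of 5 CD 3 arrays, and over the 30 genes measured on all 10 arrays 1 passed. The hormone gene Gnrh1 differed by 0.11 ± 0.56 (SE).

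No interferon-stimulated gene of 32 reached an unadjusted p under 0.05, and the lowest adjusted p by limma was 0.764. Isg15 differed by 0.25 ± 0.37, Ifitm3 by 0.73 ± 0.41, Bst2 by 0.72 ± 0.42 and Rsad2 by −0.78 ± 0.50 (SE), and slide-blocked Ifitm3 was −0.22, Bst2 0.016 and Rsad2 0.11. None of 26 acute phase genes reached it, although 20 were higher by mean with a median of 0.23 (0.03 without CD 3 rat 4), with Alb at −0.42 ± 0.25, Il6r at 0.74 ± 0.45 and Serpina3n at 0.49 ± 0.34 (SE). In complement and coagulation 24 of 37 were higher by mean. The clotting factor gene F9 was −0.29 to 0.74 in CD 3 and −0.88 to 0.02 in BD 3 (−0.95 ± 0.29, SE), but was at 0.28 with Cy5 alone, while Masp2 (0.43 ± 0.20, SE) and F7 (0.43 ± 0.22, SE) differed the other way, at 0.067 and 0.13 when slide-blocked. Of 31 genes of protein folding and stress, the endoplasmic reticulum chaperone genes Hsp90b1 (1.12 ± 0.46, SE) and Calr (1.17 ± 0.49, SE) were higher at an unadjusted p under 0.05, against 5.07% of all genes, and Pdia3 was at 1.02 ± 0.52 (SE). All 3 were lowest in CD 3 rat 4 and at −0.20, −0.22 and −0.03 with the slide as a block. None of 19 clock genes reached it, with Wee1 at 0.70 ± 0.34, Npas2 at 1.06 ± 0.53, Bhlhe40 at 1.42 ± 0.74 and Dbp at 0.11 ± 0.90 (SE). Wee1, Npas2 and Bhlhe40 were each well above background on 4 of 5 CD 3 arrays, Bhlhe40 was 0.051 with the slide in the fit, and Npas2 was 0.44 without CD 3 rat 4.

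In the cell cycle list 8 of 23 genes were higher by mean, and Cdk2 was the 1 gene past an unadjusted p of 0.05 (1.07 ± 0.34, SE). It was well above background on 4 CD 3 arrays only and at −0.14 with the slide as a block, and none of the list's genes measured on all 10 arrays passed. Cdkn2a differed by −0.58 ± 0.29 (SE; 0.14 with the slide as a block) and Cdc25b by −0.49 ± 0.27 (SE). Cytosolic ribosomal protein genes were measured on all arrays with small differences. Their median was 0.01, 26 of 48 were higher by mean, and 3 passed an unadjusted p of 0.05, Rps12 (0.52 ± 0.19, SE), Rpl12 (0.38 ± 0.18, SE) and Rplp1 (0.30 ± 0.14, SE), beside 5.07% higher among all genes. Their values with the slide in the fit were 0.060, 0.16 and 0.15. In oxidative phosphorylation the median was 0.05 and 24 of 44 genes were higher by mean. At an unadjusted p under 0.05, 4 were higher and 2 lower (5.07% and 2.05% of all genes). Higher were the cytochrome oxidase subunit genes Cox4i1 (0.63 ± 0.23, SE), Cox8a (0.41 ± 0.16, SE) and Cox6b1 (0.38) and the complex I subunit gene Ndufa5 (0.35), and lower were the ATP synthase gene Atp5pb (−0.46 ± 0.18, SE) and Cyc1 (−0.45). Fitted with the slide, Cox4i1 was 0.078, Cox8a 0.14 and Atp5pb 0.013.

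Marker genes of the cells that a piece of liver can hold were set beside these results. Of all genes, 53.5% were higher by mean, and 5.07% were higher and 2.05% lower at an unadjusted p under 0.05. Of 14 hepatocyte markers none reached an unadjusted p under 0.05 and 11 were higher by mean and each had a Cy5 signal well above background in every rat. All 6 tested red cell genes were lower in BD 3, 3 of them at an unadjusted p under 0.05, Hbb-b1 (−1.49), Hbb (−1.19) and Slc4a1 (−0.96). Their mean ran from −1.81 to 0.06 in CD 3 and from −2.57 to −0.47 in BD 3, and the 2 globin probes can share signal. Of 16 Kupffer cell and macrophage genes 14 were higher by mean with a median of 0.63, and C1qc passed an unadjusted p of 0.05 (1.03). Their mean ran from −2.72 to −0.38 in CD 3 and from −1.94 to −0.29 in BD 3, and with the slide as a block the median was 0.00. Of 13 stellate cell genes 12 were higher, with Reln (1.16) and Pdgfrb (0.63) past that mark, and of 13 lymphocyte and granulocyte genes 7, of 9 endothelial genes 7, of 5 bile duct genes 3 and of 6 pancreas genes 1 were higher with none past it. The part of these cells in the differences above was not tested.

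**Figure D4:**
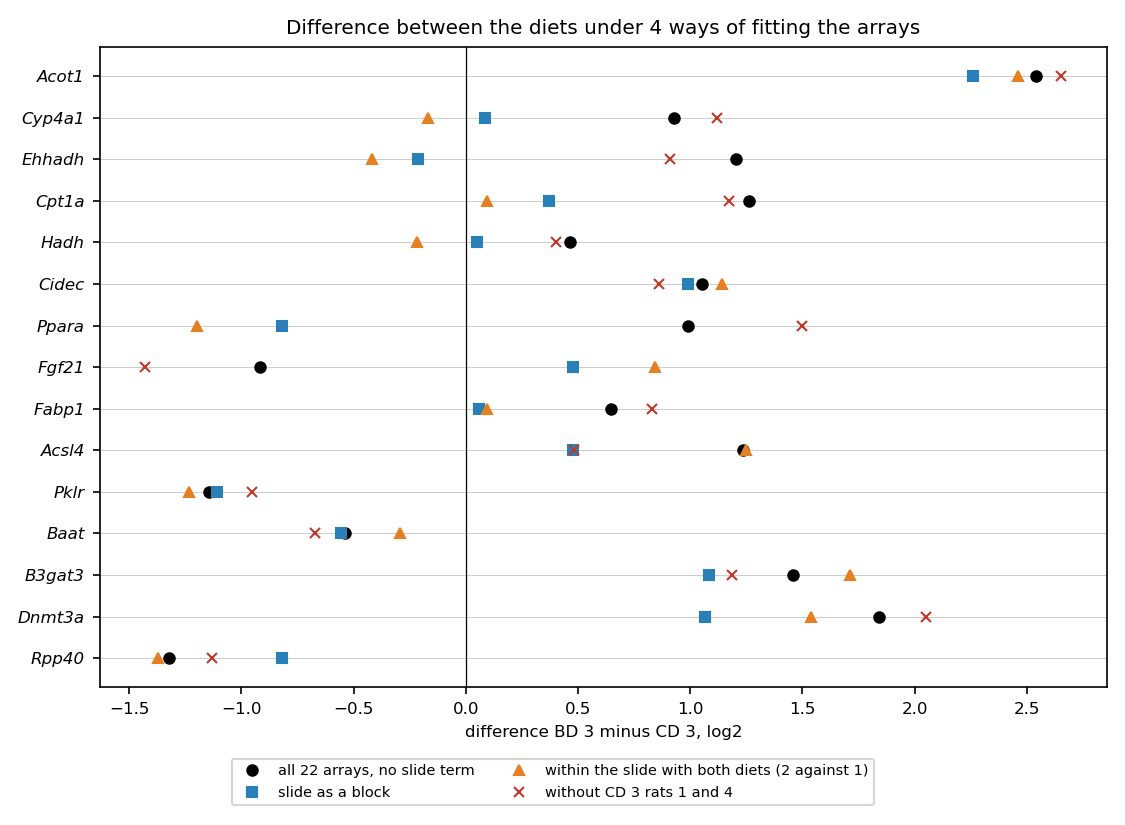
Difference between BD 3 and CD 3 on the log2 scale (horizontal axis) of 15 named genes, fitted over all 22 arrays (circles), with the slide as a block (squares), within the slide that holds both groups (triangles, 2 arrays against 1, no test) and without CD 3 rats 1 and 4 (crosses). Acot1 lies between 2.26 and 2.65 in all 4, while Ehhadh and Ppara lie above 0 in the fit of all arrays and below 0 with the slide as a block.

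The rats fed for 14 months, which are other animals, gave values for the same diets. All 6 BD 14 arrays lay on slide C but only 2 of the 6 CD 14 arrays did, and the part of the slide was not tested. At 14 months Acot1 differed by 3.31 ± 0.58 (SE) and Cidec by 1.26 ± 0.28 (SE), with adjusted p of 0.140 and 0.372 by limma. The differences of Cpt1a, Cyp4a1 and Ehhadh were 1.06, 0.94 and 1.12, close in size to those at 3 months, with adjusted p of 0.956. Those of B3gat3, Dnmt3a, Rpp40, Pklr and Baat were 0.29, 0.32, 0.04, −0.30 and −0.03, smaller than at 3 months. The test of the interaction of diet and time passed for no probe after adjustment and for 857 at an unadjusted p under 0.05, and its adjusted p was 0.999 for each of these genes.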

How the data were processed

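Agilent two-colour arrays held liver RNA of 22 rats, 1 array per rat, and the 10 arrays of 3 months are reported. The members and gene lists were chosen with earlier results of these data known. The authors deposited raw intensity values of each spot and processed intensity values from Agilent Feature Extraction (version 10.10.1.1 in the headers, 10.7.3.1 in the labels), background-subtracted and dye-normalized by Lowess, with surrogate values for spots not above background. Per the file headers, a log10 column gives processed Cy5 over Cy3. The authors also deposited log2 values of probes they called significant.

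The log10 ratios were turned to log2 (times 3.322), control and non-uniform spots were dropped, and spots were averaged by probe. Probes entered the test if, on all arrays of CD 3 or all of BD 3, a share of 0.5 or more of their spots had Cy5 well above background, and 287 such probes lacked a value on some array. A probe's gene is that of the array annotation, updated through RefSeq symbols, and the probe with the highest mean Cy5 signal stood for a gene. The 4 group means were fitted over 22 arrays with limma 3.58.1 in R 4.3.3 (prior degrees of freedom 3.4, median residual SD 0.515), with Benjamini-Hochberg adjustment and a threshold of 0.05. The number of arrays limits the precision. Named are, symbols that start with LOC or RGD left out, the 12 genes of smallest p in each direction, the 3 of smallest p in each list without cell markers, and a set of liver genes of interest, of which 107 are given and a few are not reported here, and genes outside this rule (Slc22a5, Slc25a20, Fads6, Gckr, Pygl, Insr, Ppp1r3b, Cox6b1, Ndufa5, Cyc1 and the cell markers) were named after their values were seen. Alternatives were other background correction, channel, centring, filters, trend and array weights, slide or rat number as a block, an F test over the 4 groups followed by Tukey's comparisons as in the methods, the authors' values, and each array left out. Added after seeing the data were the fit without CD 3 rats 1 and 4 and list medians over genes measured on all 10 arrays. The main fit, and not its alternatives, was tested on simulated data with known changes. Promoters are from RefSeq, build GRCr8.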

Additional observations from a re-analysis of the deposited data

Results flagged for a closer look

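Within each diet, 282 sets of 4 or 5 values, each a gene or the mean of a gene list, were examined for 1 rat standing apart from its group by Dixon's test, and 14 had one, where chance gives about 1 in 20. In CD 3, the log2 ratio of Adam34 was 1.83 in rat 1, with the other 4 rats at surrogate values, Cox11 was 0.13 and Mplkip 0.33 in rat 5, Igfals was −1.81 and Pdia3 −4.02 in rat 4, and Ifitm3 was −2.11 in rat 3. In BD 3, Acsl4 was −0.10 and Scd 5.11 in rat 3, and Sqle was −2.42 in rat 5. Of the list means in CD 3, the fasting-responsive lipid genes were at 0.74 and the genes of polyunsaturated fatty acids at 0.45 in rat 2, and the bile duct markers at 0.15 in rat 1. In BD 3, the mean of the genes of the study's pathways was 0.47 in rat 3 and that of the pancreas markers was −2.34 in rat 5.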

How the results depend on the processing

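The count of probes past the adjusted threshold was 1 in the fit as reported. It was 0 with CD 3 and BD 3 arrays alone, normexp with loess, no detection filter, the strict filter, flagged spots retained, a trend on intensity, weighted arrays, the slide as a block, without CD 3 rats 1 and 4 (chosen after seeing the data) and by the methods' F test with Tukey's comparisons, 2 with arrays centred and 354 with Cy5 alone (334 of them higher). Where it was 0, probes at an unadjusted p under 0.05 numbered 764, 1567, 1845, 1074, 1341, 1353, 868, 2112, 1721 and 382 in that order, and with Cy5 alone 3103. Leaving out 1 array at a time gave 0 to 94 adjusted calls and 958 to 2430 unadjusted ones. The 94 calls came without CD 3 rat 5, when 14 named genes passed, B3gat3, Dnmt3a and Rpp40 among them, and there were 4 without CD 3 rat 1 and 1 without CD 3 rat 3. With Cy5 alone Adam34, Cidec, Keap1 and Slc28a2 passed. With the rat's number as a replicate block, 0 probes passed and 1300 had an unadjusted p under 0.05, and the numbers name different rats, whose deviations correlated by −0.07 to 0.28, so they do not pair the samples.

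Over 107 named genes and all alternatives, 2476 of 2567 differences kept their direction, and 70 genes kept it in all. Directions turned with Cy5 alone for Zscan26 0.099, F9 0.28, Cdkn2a 0.16, Pdk4 0.88, Scd −0.47, Gnrh1 −0.16 and Dbp −0.040. With the slide as a block they turned for Acot5 0.16, Ehhadh −0.22, Ppara −0.82, Fgf21 0.48, Scd2 −0.25, Slc27a5 0.17, Dhrs4 −0.0044, Prdx1 −0.17, Cyp2a1 −0.013, Cyp2a2 −0.083, Gstt2 0.11, Igfals −0.037, Ifitm3 −0.22, Rsad2 0.11, Hsp90b1 −0.20, Calr −0.22, Pdia3 −0.029, Cdk2 −0.14, Cdkn2a 0.14, Atp5pb 0.013, Pdk4 0.55, Sqle 1.02, Fasn 0.11, Scd −2.70, Cat −0.75 and Dbp −1.44. Within slide B they turned for Cyp4a1 −0.17, Acot5 0.48, Ehhadh −0.42, Hadh −0.22, Ppara −1.20, Fgf21 0.84, Slc27a5 0.21, Prdx1 −0.12, Rsad2 0.26, Cdkn2a 0.043, Cox4i1 −0.0029, Pdk4 1.09, Sqle 1.69, Fasn 0.80, Scd −3.42, Cat −0.64 and Dbp −1.78. Without CD 3 rats 1 and 4 they turned for Il6r −0.034, Scd −0.24, Fads1 −0.18, Bco1 −0.70, Nqo1 −0.43 and Cyp2c11 0.051. They turned with normexp and loess for Pdk4 0.070, Scd −0.024 and Bco1 −0.0060, with arrays centred for Scd −0.012 and Bco1 −0.014, and with array weights for Scd −0.13 and Bco1 −0.23. With 1 array left out the ranges that crossed 0 were Pdk4 −0.38 to 0.24, Fasn −0.73 to 0.20, Scd −1.22 to 0.65, Fads1 −0.10 to 1.01, Bco1 −0.47 to 0.54, Cat −0.046 to 1.1, Cyp2c11 −0.35 to 0.19, Gnrh1 −0.34 to 0.74 and Dbp −0.51 to 0.66. In the authors' values, 21 of the named genes were listed and none turned. Those values cover only probes that the authors called significant on these arrays, so this is not independent support. The column named CD 3 rat 5 there matched no array closely. The causes of the turns were not tested.

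List medians that moved by more than the spread between rats were, with Cy5 alone, thioesterases 0.27, fasting lipid genes 0.45, bile acids 0.32, retinoids 0.21, study pathways 0.15 and bile duct −0.17. With the slide as a block they were thioesterases 0.14, cholesterol 0.56, GnRH signalling 0.20, study pathways 0.27, glucose 0.091, clock 0.051, ribosome 0.13 and bile duct −0.16. Within slide B they were cholesterol 0.82, retinoids 0.21, Nrf2 response −0.26, GnRH signalling 0.24, study pathways 0.28, glucose 0.060, stress response 0.62, lymphocyte −0.80, stellate cell −0.36, endothelium 0.56 and bile duct −0.62. Without CD 3 rats 1 and 4 they were thioesterases 0.12, peroxisomal −0.044 and growth hormone −0.20, and with normexp and loess study pathways 0.54. With 1 array left out, the medians that moved so ranged from 0.46 (without CD 3 rat 4) to 0.97 for study pathways, −0.14 to 0.13 (without CD 3 rat 1) for thioesterases, −0.16 to 0.048 for glucose, 0.055 to 0.31 for the clock and −0.073 to 0.38 for bile duct.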

Other observations

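The authors' table of processed log2 values could be set against the arrays over 253 probes that both held and that were detected. Each of the 5 columns of BD 3 correlated with the array of its own name (r at least 0.996). The columns named CD 3 rats 1, 2, 3 and 4 correlated best with the arrays of rats 2, 3, 4 and 5 (r at least 0.997), and the column named CD 3 rat 5 reached at most 0.789. These correlations are across probes, which are no independent replicates.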
